A study of Drosophila melanogaster with 2 samples.

Results

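The peaks described here lay at or just downstream of a protein-coding start, with no protein-coding start on the other strand near the summit. They were taken from the authors' list of 7630 peaks selected by the irreproducible discovery rate (IDR), which asks whether a peak ranks alike in the replicates. A peak was kept when every annotated protein-coding transcript start within 500 bp of its summit was on 1 strand and the summit lay at the nearest of these starts or beyond it in the direction of transcription. This gave 419 downstream peaks, 5.49% of the IDR list (95% Wilson interval 5.0% to 6.03%), at 404 genes. Of these genes, 15 had 2 such peaks. No measured height entered the choice beyond the authors' own IDR threshold.

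The peaks come from chromatin immunoprecipitation with sequencing (ChIP-seq) of a Drosophila melanogaster line that stably carries CG10979 with green fluorescent protein (GFP) fused to its C terminus. Whole embryos of both sexes, 0 to 14 h old, were pooled, sonication broke the chromatin into fragments of 200 to 800 bp, and an anti-GFP antibody recovered the fusion protein with its bound DNA. Both samples, biological replicates 2 and 3, carried the fusion and formed 1 group, so there is no second genotype, stage or treatment, and the values are averages over all cell types of the embryo and over 14 h of development. The inserted copy was expressed in flies whose own CG10979 gene is not described in the labels, and whether the fusion acts as the native protein was not analysed here. With 1 group the comparisons below are between positions on the genome, given for the IDR list and, for most, also for each replicate's own 7630 strongest peaks. No test was run, since an exact sign test over 2 replicates cannot give a two-sided p below 0.5. A pair of further sets of IDR peaks served for comparison. The 1453 upstream peaks had their summit before the nearest start under the same rule, and the 983 divergent peaks had protein-coding starts on both strands within 500 bp.

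Transcription by RNA polymerase II begins at the core promoter, a short stretch around the start that can hold a TATA box before it, an initiator over it and elements such as the downstream promoter element after it. The first bases of the transcript usually form an untranslated exon, which precedes the coding sequence, and the first intron often begins soon after. In many fly genes the polymerase pauses shortly after the start, and promoters of broadly active genes often carry the motif bound by the zinc finger protein M1BP or the element bound by DREF. Sequence upstream of fly starts is richer in A and T than the sequence inside genes.

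The sequences below show the kinds of place where the downstream peaks were found, each read on the strand of the gene from the RefSeq genome of Release 6, which dm6 denotes. The first set holds the 81 bases around the summits of strong peaks in introns, which overlap no annotated exon, with capitals marking, on either strand, TATAAA as the TATA box, ATATTA as a word of A and T, TAATTA as the homeobox core, AGATGGC as a variant of the CTCF core and TGCATA as the Su(Hw) core.
CG31612, chr2L:21794926-21795006, minus strand: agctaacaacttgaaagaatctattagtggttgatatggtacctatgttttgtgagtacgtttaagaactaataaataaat
hng3, chr3L:738861-738941, minus strand: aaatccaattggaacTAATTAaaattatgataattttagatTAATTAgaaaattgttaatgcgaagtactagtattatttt
Ptp4E, chrX:4939937-4940017, plus strand: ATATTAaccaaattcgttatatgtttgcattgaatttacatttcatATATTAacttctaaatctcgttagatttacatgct
scramb2, chr3L:3046393-3046473, minus strand: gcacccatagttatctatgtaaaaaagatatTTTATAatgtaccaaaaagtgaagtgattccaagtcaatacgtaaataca
CG43116, chr3R:25996533-25996613, minus strand: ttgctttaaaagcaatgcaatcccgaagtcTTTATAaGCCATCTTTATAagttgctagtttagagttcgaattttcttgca
These windows were rich in A and T: the GC content was 28.4% at CG31612, 18.5% at hng3, 23.5% at Ptp4E, 28.4% at scramb2 and 33.3% at CG43116.

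The second set holds 29 bases around summits in untranslated exons, with the same words marked in capitals where present. The first 3 belong to the strongest peaks of this kind and the last 2 to ribosomal protein genes.
PNPase, chr3R:31404647-31404675, minus strand: aagaaacgtacagggcttttattgtaaga
ph-p, chrX:2137944-2137972, minus strand: aacttaaaacttaataaatcaactcaata
Eip75B, chr3L:17999778-17999806, minus strand: acatgataataaacaacttgccaaaaaaa
RpS4, chr3L:13041789-13041817, plus strand: cgcccgcaaatctgccttttccttttcct
RpL24, chr2L:13395105-13395133, minus strand: gccacactaatttggctcagcttttcgtt
None of these 5 short windows held one of the words. Their GC content was 34.5% at PNPase, 17.2% at ph-p and 24.1% at Eip75B, and higher at the ribosomal protein genes, with 51.7% at RpS4 and 44.8% at RpL24.

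The third set shows 2 core promoter words near summits that lay in untranslated exons, each in capitals with 10 bases to either side: GGTCACAC, the M1BP motif, in the first 4 lines and CGGACG, the pause button, in the last 3.
RpL27A, chr2L:4458331-4458358, minus strand: gccgccgggcGGTCACACtgctacaacc
Abl, chr3L:16647869-16647896, minus strand: accgacaagcGGTCACACgagtgcaagt
drpr, chr3L:1731083-1731110, minus strand: ctcgcaaagcGGTCACACtggcgagtgc
CG5196, chr3R:12408283-12408310, plus strand: ttgcaggcacGGTCACACcgacacagtt
RpS4, chr3L:13041822-13041847, plus strand: tattgcccgaCGGACGgtatgtgtat
drl, chr2L:19190389-19190414, plus strand: aaaacgaacgCGGACGaacggcgaga
CG33695, chr2L:11278046-11278071, plus strand: tgaatagctgCGGACGcaaaactacg
The M1BP word began 16 bp after the start at RpL27A, 7 bp after it at drpr, 4 bp before it at Abl and 23 bp before it at CG5196. The pause button began 31 bp after the start at RpS4, 57 bp at drl and 35 bp at CG33695.

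Downstream summits crowded close to the start and thinned out with distance. Their median distance was 93 bp, and 221 of the 419 (52.7%, interval 48.0% to 57.5%) lay within 100 bp, against 24.7% of upstream peaks. The share within 100 bp was 50.7% in replicate 2 and 48.5% in replicate 3, against 22.7% and 25.6% for upstream peaks. In steps of 50 bp the counts were 134, 82, 48, 34, 27, 17 and 14 up to 349 bp and then 22, 19 and 22, so that the last 150 bp of the window held slightly more summits per step than the 100 bp before. The sonicated fragments of 200 to 800 bp were longer than these steps, and how finely a summit places the protein was not tested. On the upstream side of the IDR list the highest count, 219, lay 151 to 200 bp before the start, beside 214 at 101 to 150 bp. Replicate 2 had 220 in each of these steps, and replicate 3 had 198 at 151 to 200 bp and 225 at 101 to 150 bp. Replicate 3 alone gave 555 downstream peaks and replicate 2 alone gave 341, while their upstream counts were 1463 and 1442 and their divergent counts 1027 and 973.

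Relaxed peaks downstream of a start seldom reached the IDR list. The authors' relaxed pooled list of 30000 peaks held 3250 peaks that met the same position rule, and 419 of them (12.9%, interval 11.8% to 14.1%) were IDR peaks, against 35.7% of upstream peaks, 41.5% of divergent peaks and 25.4% of all pooled peaks. The share was 22.8% in the last 50 bp before the start, 17.9% in the first 50 bp after it and 7.87% at 300 to 349 bp, and the highest share upstream, 43.7%, was 151 to 200 bp before the start. Where the summit lay mattered for this share: 14.5% of relaxed downstream peaks in untranslated exons and 16.3% of those in introns were IDR peaks, but 17 of 549 in coding exons (3.10%, interval 1.94% to 4.90%). All 7630 IDR peaks were found, with the same place and signal value, among the 7630 pooled peaks of highest signal value, so these shares restate a difference in signal value.

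**Figure D1:**
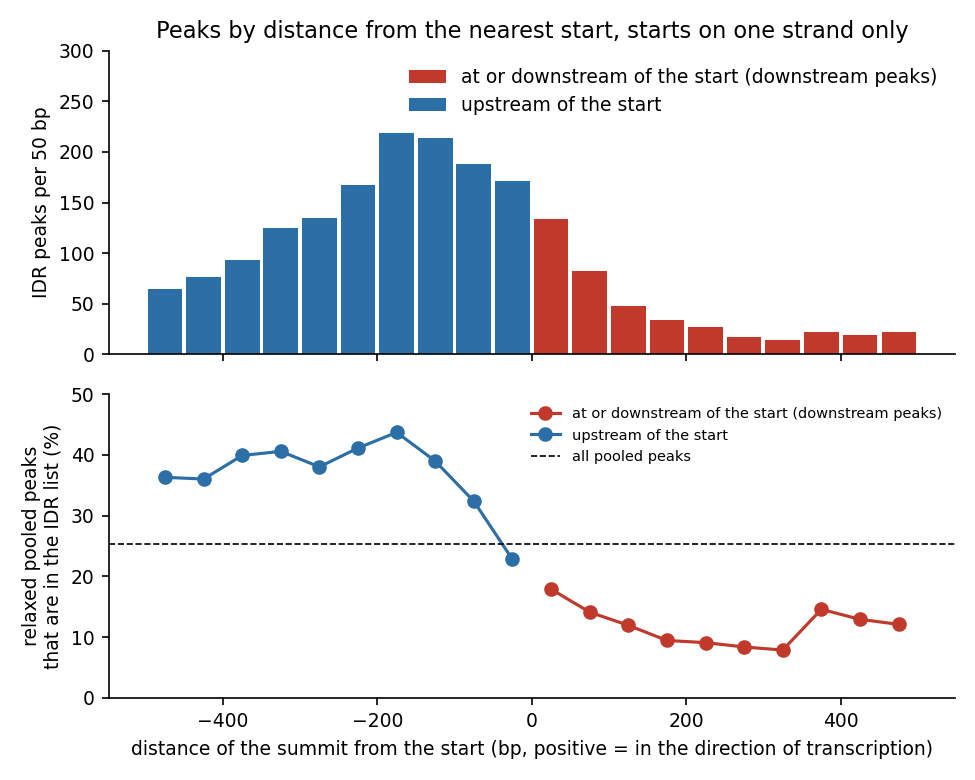
IDR peaks per 50 bp (top) and the percent of relaxed pooled peaks that are in the IDR list (bottom), by distance of the summit from the nearest start in bp, for starts on one strand only; the dashed line is the 25.4% of all pooled peaks. Counts fall from 134 in the first 50 bp after the start to 14 at 300 to 349 bp, and every downstream step lies below the dashed line.

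The downstream peaks, taken as a set, were weaker than peaks on the other side of the start. Their signal values, the authors' score per peak with no fixed range, had a median of 257.4 and ran from 190.1 to 5069, against a median of 384.7 for upstream and 382.4 for divergent peaks. The difference of the median log2 signal value, downstream minus upstream, was −0.58 in the IDR list, −0.60 in replicate 2 and −0.53 in replicate 3 (mean −0.56 ± 0.047, SD, n = 2), so that it exceeded the spread between the replicates. Among the 3815 strongest IDR peaks stood 25.8% of downstream peaks, against 51.1% of upstream peaks. Of the 419 downstream peaks 23 were among the 1000 strongest IDR peaks and 2 among the 100 strongest, against 296 and 38 of the 1453 upstream peaks. At the start itself the step was small: the 60 peaks 0 to 20 bp after a start had a median of 250.4 and the 69 peaks 1 to 20 bp before one had 256.8. Farther out the gap varied. The median was 287.9 at 200 to 249 bp after the start and 573.3 at 201 to 250 bp before it. At 400 to 449 bp after it the median was 544.7 (n = 19), above the 408.3 at 401 to 450 bp before it. There replicate 2 had 283.3 against 208.6, but replicate 3 had 135.0 against 182.0.

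The strongest downstream peaks stood at genes of varied function. PNPase, whose product is the polynucleotide phosphorylase that degrades RNA in mitochondria, had the highest signal value, 5069, with a summit 79 bp after its start on chromosome 3R (2934 in replicate 2 and 2148 in replicate 3). Next came ph-p, a Polycomb group gene whose product is part of a complex that represses developmental genes, with 4434 at 413 bp (2498 and 2091). Because ph-p has a neighbouring near-identical copy, ph-d, reads at both may have been assigned to either, and their values are uncertain. CG31612 followed with 2740 at 481 bp, in an intron (1502 and 1232), and then Eip75B, which encodes a nuclear receptor induced by the hormone ecdysone, with 2428 at 29 bp (1338 and 1104). In these 4 the replicate 2 value was the higher. CG9485 had 2406 at 318 bp in an intron and was the single one of the 15 strongest with the higher value in replicate 3 (942.9 in replicate 2 and 1443 in replicate 3).

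The other 10 of the 15 strongest had signal values between 1572 and 2267. They were Smg5, a factor of nonsense-mediated mRNA decay (2267 at 88 bp), hng3 (2240 at 448 bp), GstE13, a glutathione S-transferase (2219 at 71 bp), and Ptp4E, a receptor tyrosine phosphatase (1927 at 396 bp). CG12316 (1923 at 87 bp), CG9399 (1915 at 58 bp), the carbonic anhydrase gene CAH3 (1814 at 120 bp) and rudhira (1776 at 253 bp) came next. The phospholipid scramblase gene scramb2 (1714 at 379 bp) and Trpm, a cation channel of the TRP family (1572 at 151 bp), completed them. Of the 15, 6 had their summit in an intron, namely CG31612, CG9485, hng3, Ptp4E, rudhira and scramb2.

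Summits lay mostly in untranslated exons, and the fewer summits in introns were stronger and farther from the start. At the summit base 290 downstream peaks (69.2%, interval 64.6% to 73.4%) had an untranslated exon, 112 (26.7%, 22.7% to 31.2%) an intron and 17 (4.06%, 2.55% to 6.40%) a coding exon of the gene, where an exon in any transcript was given precedence over an intron. The intron share was 30.8% in replicate 2 and 24.5% in replicate 3. The median distance from the start was 316 bp in introns and 58 bp in untranslated exons, and summits in introns lay a median of 134 bp past the end of a first exon of 141.5 bp (median). The median signal value was 326.5 in introns, 249.4 in untranslated exons and 216.3 in coding exons. On the log2 scale introns exceeded untranslated exons by 0.39 in the IDR list, 0.39 in replicate 2 and 0.22 in replicate 3 (mean 0.31 ± 0.12, SD, n = 2). The part of distance from the start in this difference was not tested.

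**Figure D2:**
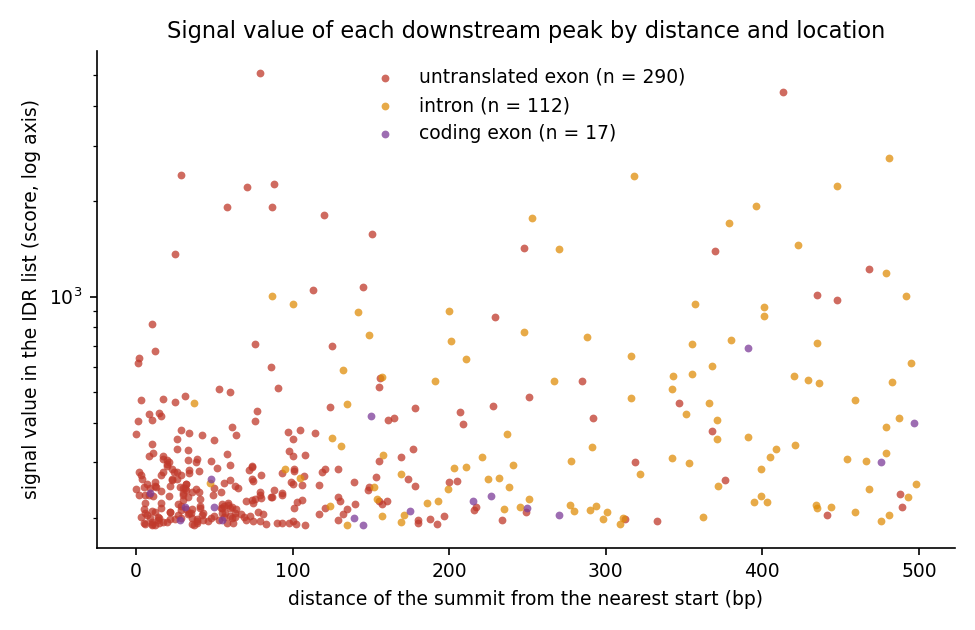
Signal value in the IDR list (score, log axis) of each of the 419 downstream peaks against the distance of its summit from the nearest start in bp, coloured by what the annotation has at the summit base. Summits in untranslated exons (n = 290) crowd within 100 bp at low signal values, and summits in introns (n = 112) spread over the rest of the window, with a median of 326.5 against 249.4.

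The strongest peaks in coding exons were those at CG44812 (691.2 at 391 bp), CG16852 (419.1 at 150 bp), CG3919 (400.0 at 497 bp) and Sgs3, a glue protein gene of the larval salivary gland (300.1 at 476 bp). Sgs3 had a signal value of 159.2 in replicate 3 and no counterpart within 100 bp among the relaxed peaks of replicate 2. Within 10 bp of the start 33 peaks were found, the strongest at scny, a ubiquitin-specific protease gene (820.6 at 10 bp), RpS4 (639.2 at 2 bp) and Ptpmeg2, a tyrosine phosphatase gene (616.2 at 1 bp). In replicate 2 their values were 430.8 at scny, 309.5 at RpS4 and 380.9 at Ptpmeg2, and in replicate 3 they were 410.0 at scny, 331.6 at RpS4 and 238.3 at Ptpmeg2.

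At the outer edge of the window, where the rule cut the distribution, the last 10 bp inside held Glys (1005 at 492 bp), CG10365 (232.7 at 493 bp), CG5171 (619.8 at 495 bp), CG3919 (400.0 at 497 bp) and Pcyt1 (257.4 at 498 bp). The first 10 bp beyond it held cu (233.4 at 502 bp), Ada2b (1269 at 505 bp) and Pxt (248.0 at 505 bp). At the inner edge, RpL27A (369.5) and CG11444 (246.9) had their summit on the start base itself, while Lac (285.3), Ccz1 (237.4) and Dlish (203.9) had it 1 bp before a start and so counted as upstream.

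Base composition at the downstream summits, taken as a set, differed from that of the other peaks, and it also moved with distance from the start. IDR peaks of all kinds had 31.8% GC in the 101 bp around the summit, a difference of −12.9 points from flanking windows of equal length centred 300 bp away. Downstream summits had 41.3% ± 9.74 (SD over peaks), between 38.4% on the side of the start and 45.2% on the side of the gene, so that the difference from both flanks together was −0.49 points, against −9.93 for upstream and −15.6 for divergent peaks. Replicate 2 gave −3.10 and replicate 3 gave 1.15 for downstream peaks, against −10.5 and −8.93 for upstream peaks. The sign of the downstream value thus changed between the replicates, while downstream minus upstream was 9.44 points in the IDR list, 7.40 in replicate 2 and 10.1 in replicate 3. At like distances the sides were closer. Upstream summits in the last 50 bp before the start had 44.7% GC and 4.08 points, beside 45.6% and 4.95 points at 0 to 49 bp after it. At 400 to 449 bp after the start the difference was −11.8 points, beside −13.1 at 401 to 450 bp before it. The part of distance in the difference between the sets was not tested.

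The near-zero average joined opposite values from introns and exons. Summits in introns lay in a trough of GC, 34.6% with −9.33 points against the flanks (−11.2 in replicate 2 and −7.09 in replicate 3), and summits in untranslated exons did not, with 43.5% and 2.79 points (0.27 and 3.49). The 17 summits in coding exons had 47.2% and 1.75 points (5.27 in replicate 2 and 7.74 in replicate 3). Introns minus untranslated exons was −12.1 points in the IDR list, −11.5 in replicate 2 and −10.6 in replicate 3 (mean −11.0 ± 0.63, SD, n = 2). For summits in untranslated exons the flank on the side of the start had 36.2% and that on the side of the gene 45.2%, and for summits in introns the flanks had 43.5% and 44.5%. Summits in introns also lay farther from the start, with a median of 316 bp against 58 bp. Over all downstream peaks the difference was 4.95 points at 0 to 49 bp, −11.8 at 400 to 449 bp and −4.34 at 450 to 500 bp. Location and distance were not separated.

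**Figure D3:**
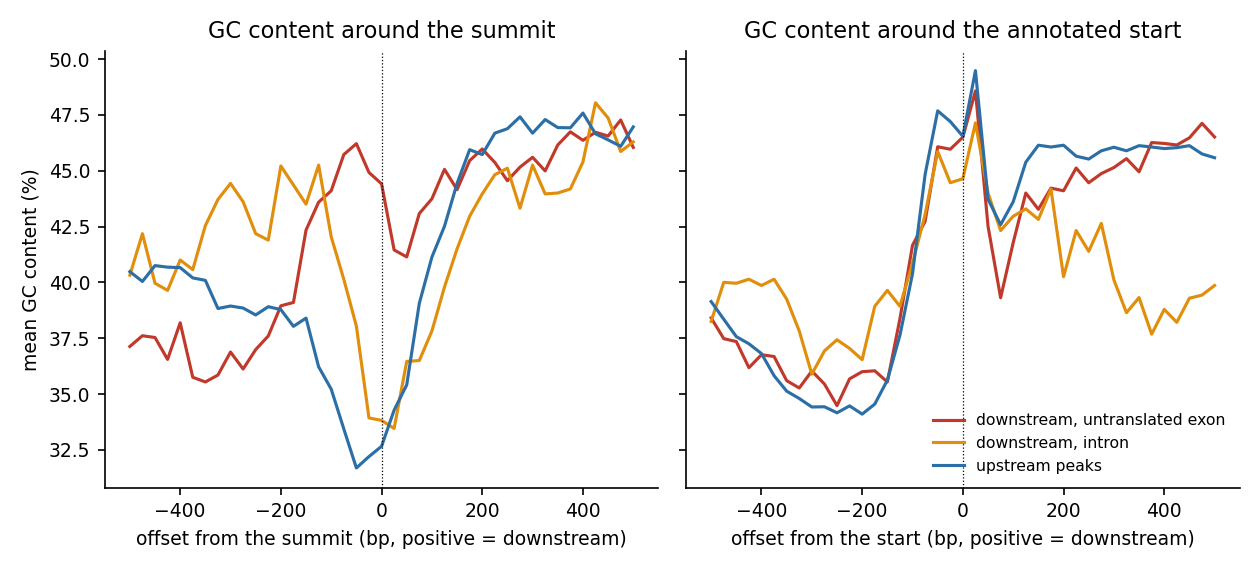
Mean GC content (%) along the strand of the gene, by offset from the summit (left) and from the annotated start (right) in bp, for downstream peaks in untranslated exons (n = 290) and introns (n = 112) and for upstream peaks (n = 1453). Around the summit the curves for introns and for upstream peaks dip below 35%, whereas the curve for untranslated exons has its lowest values on the upstream side of the window. In the right panel all 3 curves have their lowest value 200 to 300 bp before the start.

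Base composition also moved with peak height. Downstream peaks were divided by signal value into 4 ranges of near-equal number, and the other sets were read within the same limits. In the highest range (387.1 or more, n = 104) the GC difference was −10.0 points and 46.2% of the summits lay in introns, against 4.05 points and 14.4% in the lowest range (up to 214.5, n = 104). Within untranslated exons alone it was −7.18 points at 387.1 or more (n = 53) and 4.58, 4.56 and 5.86 points in the 3 lower ranges. Upstream peaks within the same limits had −14.5 points at the top and −7.23, −3.99 and −3.58 below, and summits in introns had −13.3, −8.66, −3.23 and −6.34. When the untranslated exon peaks were instead divided among themselves into 4 groups of near-equal number, those of the IDR list had −3.40 points in the highest group (n = 72) and 5.71 in the lowest. The same division gave −7.39 and 4.59 points in replicate 2 and 0.61 and 3.04 points in replicate 3, so that the highest group lay below its flanks in replicate 2 but not in replicate 3. Summits in untranslated exons of the relaxed pooled list that did not reach the IDR list (n = 1713) had 44.5% GC, beside 45.6% in the lowest range of those that did.

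**Figure D4:**
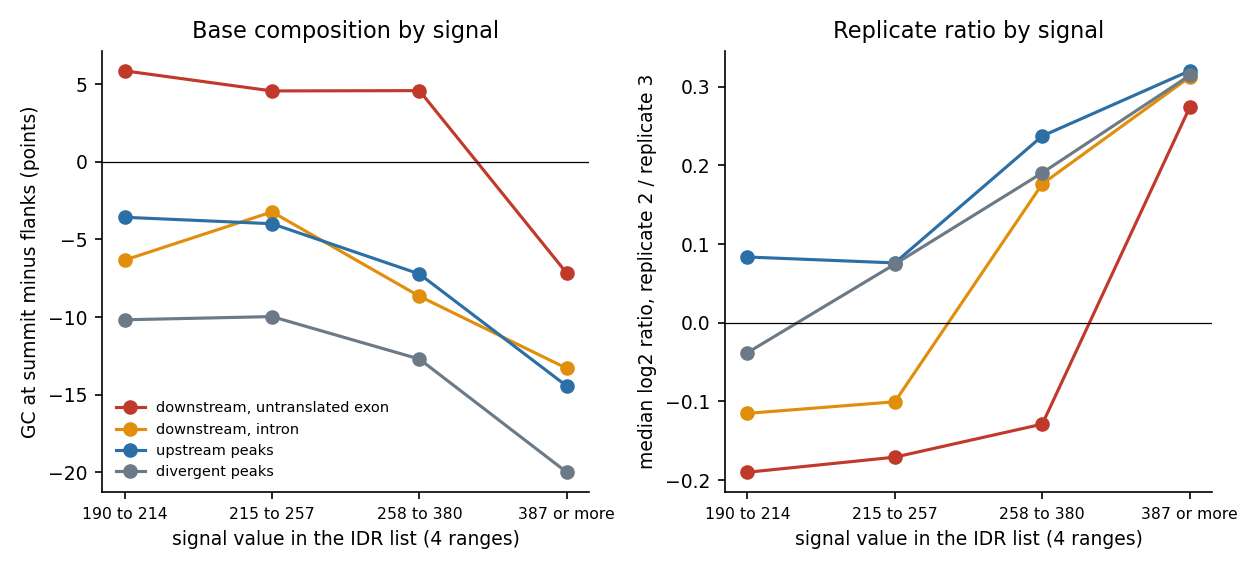
GC at the summit minus flanks in points (left) and median log2 ratio of replicate 2 to replicate 3 (right) for 4 ranges of signal value, each holding a similar number of downstream peaks, lowest range first. Downstream peaks in untranslated exons lie above 0 points in the 3 lower ranges (4.56 to 5.86) and drop to −7.18 in the highest, where their replicate ratio of 0.27 comes close to the 0.31 to 0.32 of the other sets.

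Replicate 3 carried relatively more of the downstream peaks. Of the 419, 388 had a counterpart within 100 bp in both relaxed replicate lists, 20 had none in replicate 2 and 11 had none in replicate 3. The median log2 ratio of replicate 2 to replicate 3 was −0.04, and 52.6% of the 388 were higher in replicate 3, against 0.28 and 24.1% for upstream peaks and 0.28 and 22.6% for all IDR peaks. It was −0.09 in untranslated exons, 0.23 in introns and −0.24 in coding exons. By signal value it was 0.28 in the highest range and −0.08, −0.18 and −0.19 in the lower ones, against 0.32, 0.24, 0.08 and 0.08 for upstream peaks within the same limits. Among the replicates' own 7630 strongest peaks were 292 of the downstream IDR peaks (69.7%) in replicate 2 and 371 (88.5%) in replicate 3, with 248 in both. Signal values depend on the depth of each library, which is unknown, so a ratio is read only beside that of other peaks.

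**Figure D5:**
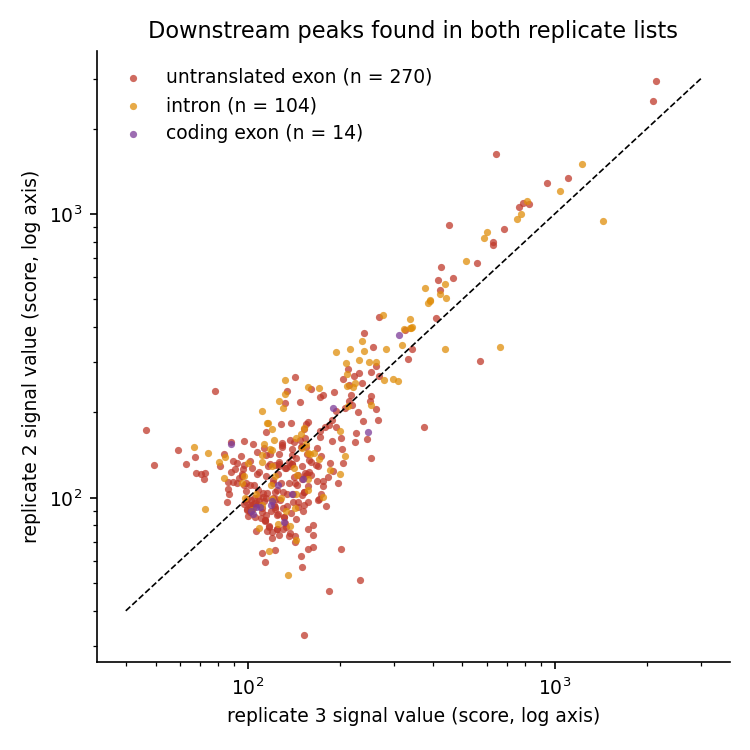
Signal value of each downstream peak in replicate 2 (vertical) and replicate 3 (horizontal), both log axes, for the 388 with a counterpart in both relaxed lists; the dashed line marks equal values. Strong peaks lie mostly above the line and the cloud of weak peaks, most of them in untranslated exons, lies on both sides of it.

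Single genes departed widely from this median. Among the 200 strongest downstream peaks, the largest ratios toward replicate 3 were at Orct, an organic cation transporter gene (51.3 in replicate 2 and 231.9 in replicate 3, log2 −2.18), and at both peaks of the glycogen synthase gene Glys (178.3 and 376.1 at 285 bp, log2 −1.08, and 340.9 and 663.1 at 492 bp, log2 −0.96). Toward replicate 2 they were at the ribosomal protein gene RpS2 (173.0 and 46.6, log2 1.89), ph-d (237.8 and 78.0, log2 1.61) and Smg5 (1627 and 644.1, log2 1.34).

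Many of these peaks had the most common width of their list, 436 bp in the IDR list and 424 bp in each replicate's list. This width, called the default width here, was that of 23.6% of all IDR peaks. Of the downstream peaks 44.4% had it, against 23.7% of upstream peaks, with 48.1% against 27.2% in replicate 2 and 75.3% against 48.5% in replicate 3. It was held by 51.7% of those in untranslated exons, 23.2% of those in introns and 58.8% of those in coding exons. Default widths went with low signal: no downstream peak of the highest range had one, and 82.7% of the lowest range did, against 0.55% and 76.7% of upstream peaks within the same limits. GC content, peak width, the replicate ratio and distance from the start all moved together with signal value, and the part of each in the other differences was not tested.

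Sequence words were counted in the 101 bp around the summits, on both strands, and compared with the flanks. Words of A and T that are common under IDR peaks were rarer here: TATAAA, the TATA box, was in 12.2% of downstream summits and 13.3% of flanks (12.6% and 9.19% of summits in replicates 2 and 3), against 25.2% of upstream summits and 26.1% of all IDR summits. TAATTA was in 5.01% of downstream summits, against 9.36% of upstream and 11.5% of all IDR summits. It was in 14 of 112 summits in introns (12.5%, interval 7.59% to 19.9%) and 7 of 290 in untranslated exons (2.41%, 1.17% to 4.90%). ATATTA was in 10.3% of downstream summits and 9.91% of flanks (11.4% and 9.01% of summits in replicates 2 and 3), against 23.3% of upstream and 24.0% of all IDR summits. The words differ in A and T content as the windows do, and words and base composition were not separated.

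Several words of core promoters were more frequent at downstream summits than in their flanks, by counts that are small for most of them. GGTCACAC was in 9 downstream summits (2.15%, interval 1.13% to 4.03%), against 0.48% of flanks, 1.51% of upstream summits and 0.80% of all IDR summits, with 2.05% in replicate 2 and 2.16% in replicate 3. All 9 were in untranslated exons. CGGACG was in 4.30% of downstream summits and 3.10% of flanks (5.57% and 3.78% of summits in replicates 2 and 3), against 0.83% of upstream summits and 0.73% of all IDR summits. In untranslated exons it was in 17 of 290 summits (5.86%, 3.69% to 9.19%) and 2.41% of flanks, and in introns it was in 0.89% of summits and 4.91% of flanks. GACGTG, a form of the downstream promoter element, was in 2.86% of downstream summits and 1.43% of flanks (2.05% and 4.68% of summits in replicates 2 and 3), against 1.03% of upstream and 0.88% of all IDR summits. TCAGT, the initiator, was in 17.9% of downstream summits and 13.8% of flanks, with 19.4% and 19.3% of summits in replicates 2 and 3, against 15.6% of upstream and 16.0% of all IDR summits. CAGCTG, an E-box, was in 7.16% of downstream summits and 4.42% of flanks, against 4.34% of upstream and 2.98% of all IDR summits. In relaxed downstream peaks outside the IDR list, CGGACG was in 3.96% and GGTCACAC in 1.94%. ACCGCG, another preset word of G and C, was in 2.6% of downstream summits and 1.7% of flanks, against 1.4% of upstream and 0.84% of all IDR summits. Downstream windows were richer in G and C, and for these words too base composition was not separated.

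AGATGGC was in 11 downstream summits (2.63%, against 0.84% of flanks, 2.34% of upstream and 2.06% of all IDR summits), the strongest at CG9485 (2406), CG43116 (1452) and RpL27 (485.6). TATCGATA, the DREF element, was in 4 (0.95%), against 0.36% of flanks, 2.27% of upstream, 5.60% of divergent and 1.31% of all IDR summits. Replicate 2 gave 0.88% of downstream summits and 0.44% of flanks, and replicate 3 gave 1.26% and 1.44%. The strongest peaks with TATCGATA were at stmA (277.4), CG10809 (249.9) and CG5196 (214.5). The 3 strongest with GGTCACAC were RpL27A (369.5), Abl, a tyrosine kinase gene (252.4), and drpr, which encodes a receptor for the engulfment of dying cells (237.5).

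Because a summit near the start brings the core promoter into its window, the words were also placed by the annotated start, a reading added after the summit counts were seen. CGGACG began 20 to 40 bp after 16 of the 415 distinct starts of downstream peaks (3.86%, interval 2.39% to 6.17%), against 2.64% of the starts of upstream peaks and 1.38% of all 19253 coding starts. Replicates 2 and 3 alone gave 4.41% and 3.85% for downstream peaks. On the strand of the gene 14 downstream summit windows held the word, and in 10 of them it began 50 bp or less after the start. GGTCACAC began within 50 bp of 33 starts of downstream peaks (7.95%, 5.72% to 11.0%), against 4.28% at upstream peaks, 7.20% at divergent peaks and 4.08% of all coding starts, with 5.59% and 9.17% in replicates 2 and 3. GACGTG beginning 20 to 40 bp after the start was present at 1.93% of downstream starts, with 1.47% and 3.12% in replicates 2 and 3. It was present at 2.43% of upstream, 0.21% of divergent and 1.13% of all coding starts. TATAAA beginning 20 to 40 bp before the start was present at 2.41% of downstream, 3.57% of upstream and 6.87% of all coding starts. TCAGT beginning within 5 bp of the start was present at 13.5% of downstream, 16.1% of upstream, 3.91% of divergent and 11.8% of all coding starts.

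Genes with a downstream peak were longer than genes with an upstream peak, and in the IDR list fewer of them had a single start. Their median length was 6606 bp (5892 bp in replicate 2 and 5964 bp in replicate 3), against 5176 bp (5349 and 5427 bp) for genes with an upstream peak, 2346 bp with a divergent peak and 2166 bp for all coding genes. A single annotated start was listed for 37.4% of them, against 46.0% and 61.7% of the genes with an upstream and a divergent peak and 73.5% of all coding genes. Replicate 2 gave 32.3% against 46.4% for downstream and upstream genes, while replicate 3 gave 43.4% against 45.4%. At 189 peaks (45.1%, interval 40.4% to 49.9%) the same gene had another start farther downstream of the summit, 48.7% in replicate 2 and 38.2% in replicate 3. At 71 (16.9%) that start was within 500 bp, so that the summit also lay upstream of a start. For upstream peaks a start farther downstream than the nearest start was counted instead. This gave 39.2% in the IDR list, 39.0% in replicate 2 and 38.4% in replicate 3, so the shares of the sets were not counted alike. The position of a start that is active in the embryo is not known from these lists.

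Most downstream peaks had no further IDR summit within 500 bp upstream of their start. At 31 (7.40%, interval 5.26% to 10.3%) such a summit was present, and at 130 (31.0%) a relaxed pooled summit was. In the 31 pairs the downstream peak was the weaker in 16, and the median log2 ratio of the downstream to the upstream peak was −0.08. No pair had summits closer than 199 bp, and how far such spacing limits the share with a second summit was not tested. Both pairs at Orct had the same upstream signal value, 320.5. The pairs with the strongest downstream peak were those at Smg5 (2267 downstream and 303.6 upstream), CG12316 (1923 and 287.8), CG9399 (1915 and 207.2) and CG43116 (1452 and 1536). Those with the strongest upstream peak were at CG11151 (387.1 downstream and 2011 upstream) and l(3)neo38 (408.4 and 1675). Counting any of their starts, 78 of the 404 genes (19.3%) also had an upstream peak, as 9.49% of all coding genes did. A start of a noncoding transcript lay within 500 bp of 26 downstream summits (6.21%, against 6.68% of upstream summits), on the other strand in 21, as at Septin2 (1223), the nuclear receptor gene Hr78 (1008) and grh (901.3).

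Cytoplasmic ribosomal protein genes, which encode the ribosome's protein parts, were the list with the most downstream peaks by count, though not by share. A downstream peak was found at 19 of 93 of these genes (20.4%, interval 13.5% to 29.7%), against 2.9% of all 13945 coding genes. Each replicate alone gave 19 and 21, in replicates 2 and 3. The count was 24 with a start window of 200 bp and 10 with 1000 bp. An upstream peak was found at 23 of the 93 (24.7%), against 9.49% of all coding genes. The 19 summits lay 0 to 169 bp after the start with a median of 29 bp, 15 of them within 50 bp, and 15 were in untranslated exons. Signal values ran from 193.1 to 675.6 with a median of 369.5, with RpL24 (675.6; 334.8 in replicate 2 and 342.0 in replicate 3), RpS4 (639.2; 309.5 and 331.6) and RpL27 (485.6; 253.0 and 235.9) the strongest. Their GC content was 43.1% and 4.77 points above the flanks, beside 4.95 points for all downstream peaks 0 to 49 bp after a start. None of 73 mitochondrial ribosomal protein genes had a downstream peak, which allows a share of up to 4.11% (3 genes of 73), while 4 had an upstream one.

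Among genes of cell shape, 6 of 28 actin cytoskeleton and adhesion genes (21.4%, interval 10.2% to 39.5%) had a downstream peak, with 3 in replicate 2 and 6 in replicate 3. The strongest were sqh, the regulatory light chain of nonmuscle myosin (760.0 at 149 bp), if, an integrin alpha chain (289.8 at 211 bp), and shg, the fly E-cadherin (260.1 at 12 bp). Of 28 Polycomb and trithorax group genes, which hold developmental genes off or on, 4 had one (14.3%, 5.70% to 31.5%), among them ph-p (4434), Trl, which encodes the GAGA factor (701.4), and ph-d (448.3). In these lists and those below, counts are small and the intervals wide.

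The lists of developmental regulators had downstream peaks at 0 to 2 genes each, and their shares stand beside the 2.9% of all coding genes. Of 21 neural fate regulators 2 had one (9.52%). They were grh, the Grainyhead transcription factor of epidermis and neuroblasts (901.3), and pros, the Prospero factor of dividing neuroblasts (265.4). Of 18 mesoderm and muscle regulators 2 had one (11.1%). They were stumps (863.0, with 304.0 in replicate 2 and 570.6 in replicate 3) and Mef2, a muscle transcription factor (231.2). The product of stumps is an adaptor of fibroblast growth factor receptors. Of 8 homeotic genes lab alone had one (309.6, 12.5% of the list). Of 29 segmentation genes none had one in the IDR list and 1 did in replicate 2 alone. The IDR count of 0 allows a share of up to 10.3% (3 genes of 29). In receptor kinase and Ras signalling InR, the insulin receptor (356.1), and aop, a repressor downstream of Ras (197.8), had one, 2 of 23 (8.70%). Of 18 insulator and architectural protein genes CTCF had one (319.6, 5.56% of the list).

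The remaining lists had counts of 0 to 3. Of 53 translation factor genes 3 had a downstream peak (5.66%), eEF5 (464.3), eIF2Bgamma (273.5) and eIF3f1 (193.0), but none in replicate 2 alone and 2 in replicate 3 alone. Of 84 respiratory chain genes 2 had one (2.38%), UQCR-14 (280.9) and ND-B22 (245.4), and of 35 glutathione S-transferase genes GstE13 (2219) and GstE12 (285.3) did (5.71%). Of 33 cell cycle and replication genes Dp had one (712.1; 3.03%), of 17 heat shock chaperone genes DnaJ-1 (260.9; 5.88%), and of 19 germline and piRNA genes bgcn (552.8; 5.26%), beside the 2.9% of all coding genes. In the IDR list no downstream peak was found at 48 proteasome, 32 aminoacyl-tRNA synthetase, 110 cuticle protein, 179 chemosensory receptor, 81 cytochrome P450 or 11 E(spl) complex genes, while replicate 3 alone had 1 proteasome and 1 E(spl) complex gene. A count of 0 allows a share of up to 1.68% for the chemosensory receptors (3 genes of 179), 2.73% for cuticle proteins and 3.70% for cytochrome P450. It allows up to 6.25% for proteasome subunits, 9.38% for aminoacyl-tRNA synthetases and 27.3% for the E(spl) complex.

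By chromosome, the downstream peaks numbered 66 on 2L (15.8%), 99 on 2R (23.6%, interval 19.8% to 27.9%), 92 on 3L (22.0%), 91 on 3R (21.7%), 2 on 4 and 69 on X (16.5%). Coding genes were distributed as 19.1% on 2L, 20.5% on 2R, 19.6% on 3L, 24.5% on 3R, 0.57% on 4 and 15.8% on X. The 2R share was 23.2% in replicate 2 and 19.8% in replicate 3, and 16.9% of all IDR peaks lay there.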

How the data were processed

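The deposited files were 4 narrowPeak lists on dm6: relaxed peaks of each replicate, relaxed peaks of the pooled replicates and the IDR list. Each peak's signal value is a score that the authors deposited, with no fixed range, and was compared only within a list or between peaks of the same lists. The aligner and the caller were not given in the sources used here. All lists contain no counts, so that depth is not known. The control was not analysed here. Columns holding other per-sample values were not used.

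Summits were the start plus the deposited offset. Starts, exons and introns came from Ensembl release 115 and bases from the RefSeq genome, both Release 6, without transposable elements, on 6 chromosome arms. Location at the summit was coding exon, then untranslated exon, then intron, over the transcripts of the gene with the nearest start. The GC content and the words of 20 preset motifs were read within 50 bp of the summit, with flanks centred 300 bp away. Replicate counterparts were the strongest peak within 100 bp. For replicate values each replicate's 7630 strongest peaks were taken. Wilson intervals at 95% cover the counting of peaks or genes only, and peaks are not replicates, so no p-value over them is given. The labels call both samples biological replicates without naming separate collections. For gene lists, a count of 0 in the IDR list is given with the share that 3 counts of the total would make.

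Alternatives were each replicate alone, the 3815 strongest IDR peaks, start windows of 200 and 1000 bp, 1 start per gene, and other windows or match distances. Named genes were the 15 strongest downstream peaks, the 4 strongest per location, the 3 strongest within 10 bp of the start, the peaks within 10 bp of the window's edge, up to 3 per gene list and per motif among the 3 words with the largest ratio to flanks, and the extreme replicate ratios among the 200 strongest; pairs of peaks, noncoding neighbours, peaks 1 bp before a start and further printed sequences were chosen after their values were seen. The peaks' definition, the gene lists and the motifs were chosen with earlier results of these data known. Classification, word counts and replicate matching were tested on simulated data. Tables were computed with pandas 2.3.3 and numpy 2.4.6 under Python 3.11.15, intervals with scipy 1.17.1 and plots with matplotlib 3.10.9.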

Additional observations from a re-analysis of the deposited data

How the results depend on the processing

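The downstream peaks were weaker than upstream peaks in each alternative run, with a log2 difference, downstream minus upstream, of −0.60 (replicate 2 alone) to −0.53 (replicate 3 alone), −0.43 with a start window of 200 bp and −0.33 with 1000 bp. Other values moved with the choice, and the cause was not tested beyond the change of the set itself. The 3815 strongest IDR peaks held 108 downstream peaks, 30.6% of them within 100 bp of the start, 44.4% in introns, 54.6% with a later start, 3.70% beside an upstream summit, a GC difference of −9.53 points and a median replicate ratio of 0.28, and 3.32% of relaxed downstream peaks were among them. A window of 1000 bp gave 633 peaks, 28.6% within 100 bp, 54.0% in introns, 21.3% beside an upstream summit, −5.95 points, a ratio of 0.17 and 14.6% of relaxed downstream peaks in the IDR list, and a window of 200 bp gave 72.2% within 100 bp, 9.83% in introns and 1.19 points. With 1 start per gene, the most upstream one, 14.2% of relaxed downstream peaks were IDR peaks, 55.0% had a later start, 6.47% stood beside an upstream summit and the GC difference was 0.26 points. The GC difference near 0 also changed sign between replicate 2 alone (−3.10) and replicate 3 alone (1.15), and was 0.11 with windows reaching 100 bp. The share within 100 bp was 48.5% to 50.7% in single replicates. Where any transcript with an intron counted, 45.8% of summits were intronic. Of 88 counts over gene lists 69 stayed within 1.5 times the value given, among them every 0 that stayed 0, which says little of stability. The ribosomal protein count was 10 with a window of 1000 bp. Of 80 motif shares 58 moved by more than the spread between replicates, 38 of the 40 read in windows of another width and 20 of the 40 from single replicates. No interval covers depth, which is unknown, and 2 replicates leave each SD imprecise.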
